A study of Rattus norvegicus with 12 samples.

Results

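The genes described here are the translation initiation and elongation factors of the rat heart, taken as the protein-coding genes of the deposited expression table whose names begin with Eif1 to Eif6, Eef1 or Eef2. The rule found 61 genes among 16898 listed genes, of which 14902 were protein-coding. It also takes in genes that act on the factors rather than being factors, such as the eIF2 kinases, the eIF4E-binding proteins and the lysine methyltransferases. The members were taken by name, and this rule was chosen with earlier results of these data known. The series was made to set the newborn heart, at the age tied to neonatal heart regeneration, beside an older one. All samples were heart tissue of Sprague Dawley rats with no treatment in the labels. Input RNA (RNA set aside before an antibody pull-down for methylated adenosine) was sequenced from hearts of postnatal day 0 (3 libraries) and from older hearts (3 libraries), which the sample labels place at day 7 while the headers of the table read 10D. The labels do not say which region of the heart was taken, or whether animals were pooled or were littermates, so the p-values reflect only how far these libraries varied, and that variation may be technical. The 6 pull-down samples were not analysed here.

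Translation begins when eIF2 brings the initiator tRNA to the small ribosomal subunit, which eIF3 holds as a scaffold and which eIF1 and eIF1A keep open for scanning. The eIF4 proteins recruit the messenger RNA: eIF4E binds its cap, eIF4G bridges to eIF3, and the helicase eIF4A unwinds the leader. In elongation eEF1A delivers aminoacyl-tRNA, eEF1B recharges eEF1A with GTP, and eEF2 moves the ribosome on by a codon. Mammals have 2 eEF1A genes: Eef1a1 is used by most tissues, whereas Eef1a2 is known from heart, skeletal muscle and neurons, where in rodents it takes over from Eef1a1 after birth.

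Levels are given in FPKM, reads scaled by gene length and library total. Comparisons between libraries depend on that scaling, and comparisons between genes on the gene length used and on how reads were assigned. Library totals ran from 13489816 to 16297533 reads, and 1 read in a gene of 1 kb was worth 0.0614 to 0.0741 FPKM. Genes of cardiomyocytes were abundant at both ages: the 10 markers summed to 63969 to 72996 FPKM at day 0 and 53779 to 62864 FPKM in the older hearts, with Myh6 called higher and Actc1 and Nppa called lower. Day 0 replicate 3 stood apart. It held skeletal muscle RNA, with Myh8 at 83.8 FPKM and Tnni2 at 69.4 FPKM against at most 0.108 and 2.39 FPKM in each of the other 5 libraries. The 6 skeletal muscle markers found of 10 listed summed to 1.64 to 247 FPKM at day 0 and 3.14 to 6.36 FPKM in the older hearts, while Myh2, Myh4, Myod1 and Myog were not found in the table. Neuron and glia markers summed to only 5.73 to 9.93 FPKM at day 0 and 2.78 to 5.64 FPKM in the older hearts, with Snap25 and Rbfox3 at no more than 1.49 FPKM in any library. The 8 fibroblast markers summed to 346 to 544 FPKM at day 0 and 865 to 976 FPKM in the older hearts, and 7 of them were called higher. The 5 endothelial markers found summed to 189.8 to 205 and 271 to 301 FPKM (Cdh5 and Cldn5 called higher), and the 6 of smooth muscle and pericytes to 187 to 209.6 and 288 to 307 FPKM (Rgs5 called higher, Cnn1 lower). The 6 macrophage markers summed to 24.0 to 31.1 and 21.1 to 27.5 FPKM, with a lowest limma adjusted p of 0.129 (Cd68) among the 5 tested. The 5 markers of proliferating cells summed to 98.4 to 144 FPKM at day 0 and 74.4 to 92.7 FPKM in the older hearts, and 1 of them (Ccnb1) was called lower. The part of these shifts in the results below was not tested, and in heart tissue fewer cells of a type cannot be told apart from less RNA per cell.

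More translation factors were called lower than higher in the older hearts, and most were not called. A gene is called here when limma's Benjamini-Hochberg adjusted p on log2(FPKM + 1) was under 0.05, and log2 fold changes are on that scale, negative where the older hearts were lower. Of the 60 members tested (mean level of 1 FPKM or more), 11 fell and 2 rose. The share called was 21.7% of members against 9.26% of all 13117 genes tested. Lower calls made up 18.3% of members against a background of 5.73%, and higher calls 3.33% of members against 3.52%. The remaining member, Eef1akmt4, had a mean of 0.977 FPKM and was not tested. A further 13 members had an unadjusted p under 0.05 without being called, 11 of them lower in the older hearts. The share of all genes in that position was not counted, so these 13 cannot be set against a background.

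The members are abundant genes, with a median mean level of 41.4 FPKM against 9.38 FPKM for all genes tested, and abundant genes were called more often. Among genes averaging 20 FPKM or more, 12 of 39 members (30.8%) were called against a background of 19.6%. At that level 25.6% of members were called lower (background 12.5%) and 5.13% higher (background 7.09%). The median log2 fold change was -0.29 over the 60 members and -0.11 over all genes tested, and at 20 FPKM or more -0.33 over the members and -0.14 over all genes.

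The day 0 and older libraries did not overlap for 34 of the 60 members (56.7%), against 32.5% of all genes tested. Older hearts were the lower group for 30 of these members (50%, background 20.3%) and the higher group for 4 (6.67%, background 12.2%). The log2 fold change was negative for 47 members (78.3%, background 58.6%). At 20 FPKM or more the ages did not overlap for 71.8% of members (background 47.9%), with the older hearts lower for 64.1% (background 30.9%) and higher for 7.69% (background 17%), and 87.2% were negative (background 62.3%).

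The level taken as no change depends on the scaling. Centring each library on its median gene, which leaves the distance between members and other genes as it was, moved the median of all genes by 0.12, to 0.01, and put the members' median at -0.17, with 45 of 60 members negative against 49.3% of genes. All genes were then called higher 617 times and lower 464 times, in place of 462 and 752. Under this scaling 10 members were called (16.7%, background 8.24%), 8 lower (13.3%, background 3.54%) and 2 higher (3.33%, background 4.7%). In the plot of changes by role, the blue lower calls of the main fit fall in 7 of the 12 roles, which hold 2 to 11 members each. Whether they gather in any role was not tested.

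**Figure D1:**
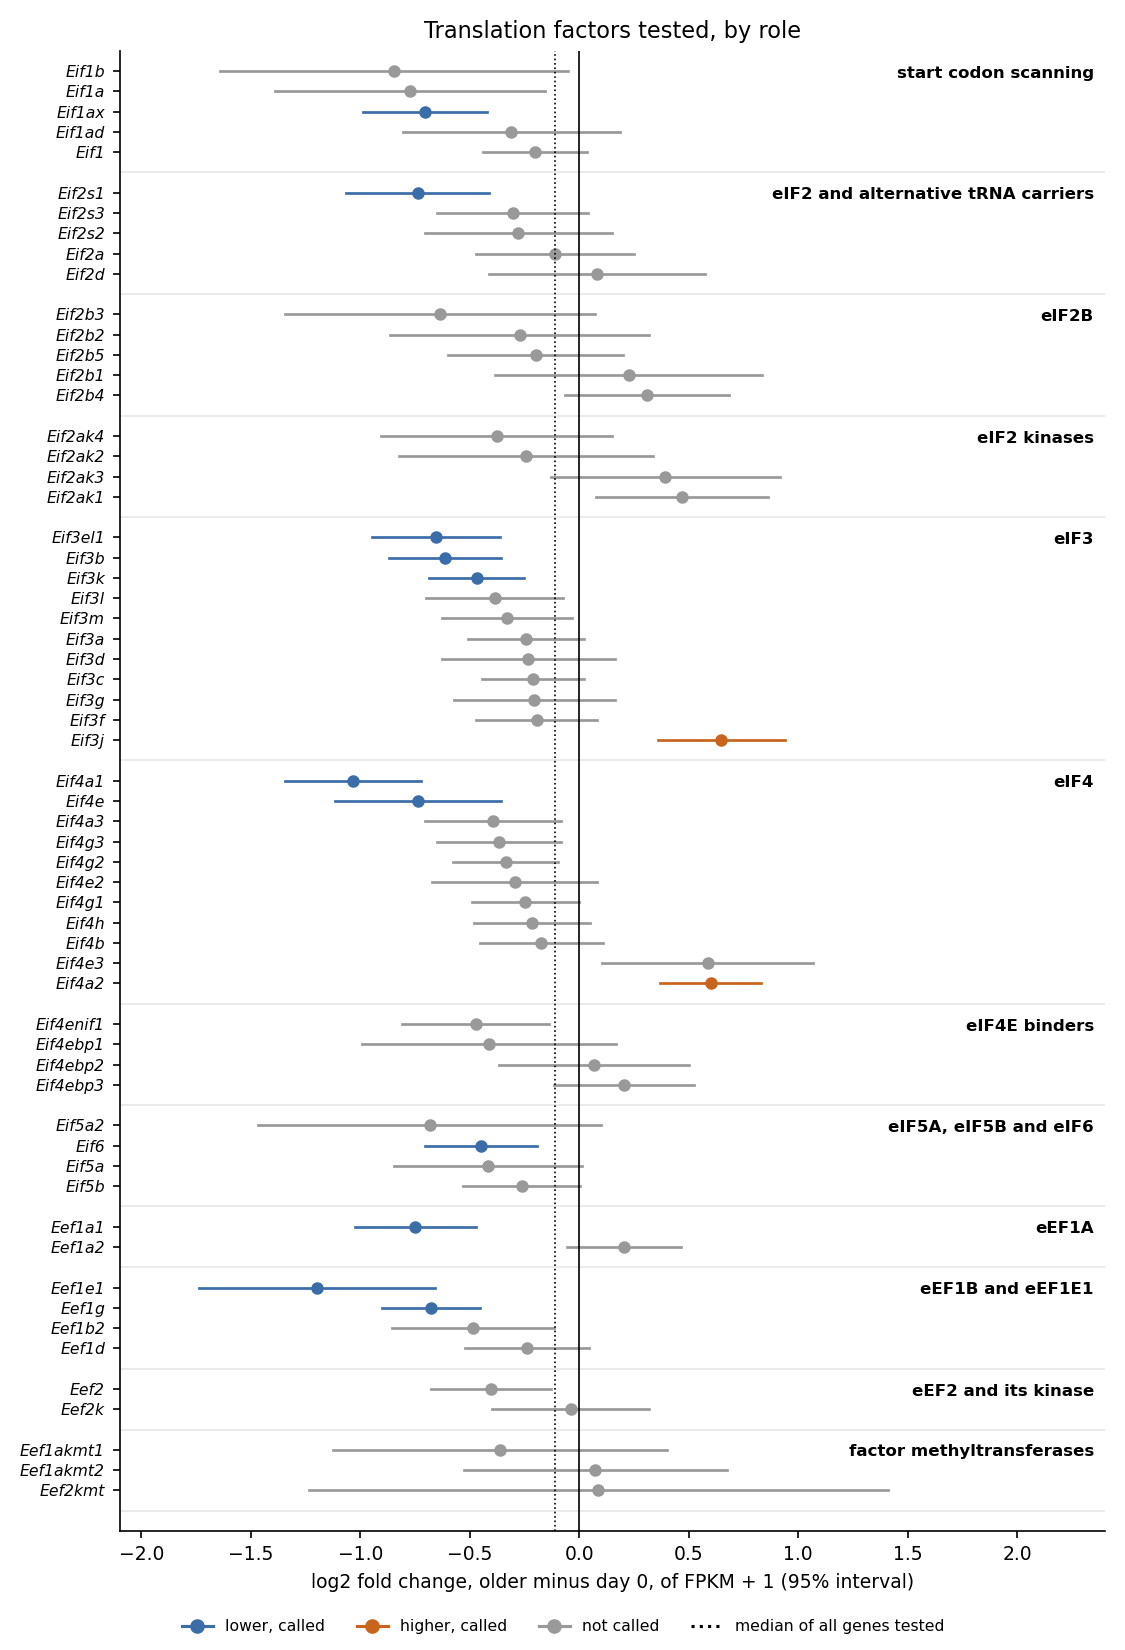
Log2 fold change of FPKM + 1 (older minus day 0) for the 60 members tested, with 95% intervals from limma, grouped by role. Blue marks the 11 members called lower, orange the 2 called higher (Eif3j and Eif4a2) and grey the others, and the dotted line is the median of all genes tested (-0.11).

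The few most abundant factors carried most of the RNA. Eef1a1 alone averaged 2619 FPKM over the 6 libraries, followed by Eef2 (511 FPKM), Eif4a1 (305 FPKM), Eif3a (301 FPKM) and Eef1g (287 FPKM). In all, 12 members had a mean of at least 100 FPKM and 56 a mean of at least 5 FPKM. Together the 61 members took 1.55 ± 0.0427% of library reads at day 0 and 1.16 ± 0.0727% in the older hearts (SD, n = 3). Each day 0 library gave a larger share than each older library.

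**Figure D2:**
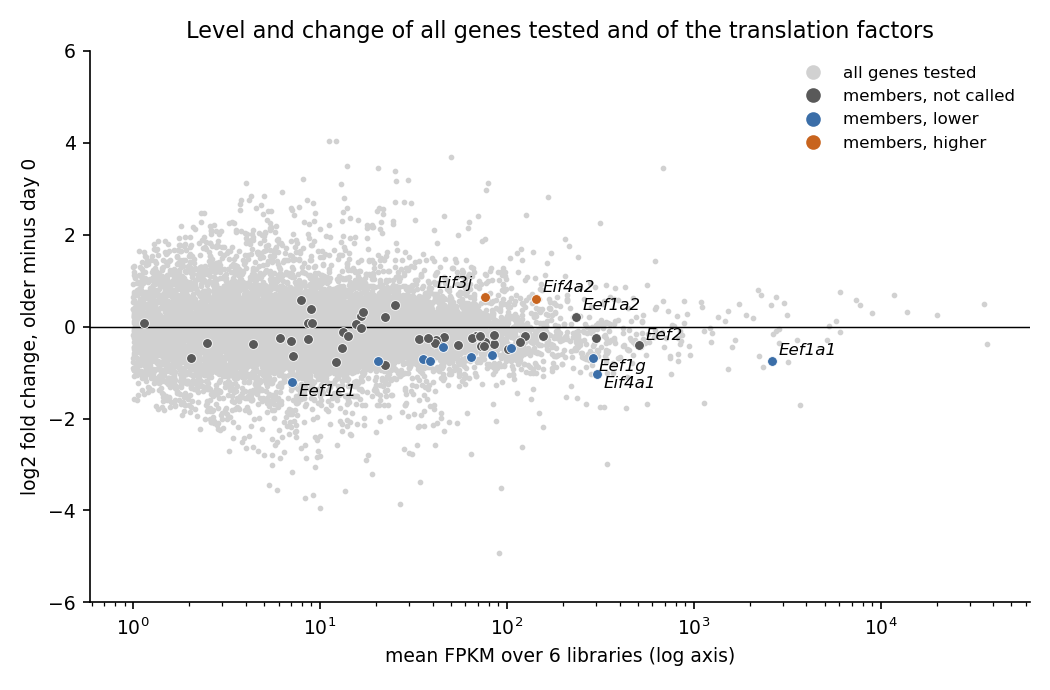
Mean FPKM over the 6 libraries (log axis) against log2 fold change, older minus day 0, for the 13117 genes tested (light grey) and the 60 members (dark grey, blue for lower calls, orange for higher calls). The members lie toward the abundant side, and 34 of the 39 with a mean of 20 FPKM or more lie below the 0 line.

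Eef1a1, the eEF1A gene of most tissues, fell from the newborn to the older hearts but stayed by far the more abundant of the pair. It stood at 3429, 3010.2 and 3404 FPKM at day 0 and 1802, 1851 and 2220.1 FPKM in the older hearts. All 3 older libraries lay below all 3 day 0 libraries. The mean went from 3281 ± 235 to 1958 ± 228 FPKM (SD, n = 3), on 39722 to 77052 reads per library, a 1.68-fold drop with a log2 fold change of -0.75 (95% interval -1.02 to -0.47, limma adjusted p = 0.0113). Without day 0 replicate 3, the library with skeletal muscle RNA, the log2 fold change was -0.72 (adjusted p = 0.0368). The call was lost without day 0 replicate 1 (adjusted p = 0.0581), without older replicate 1 (0.0583) and without older replicate 2 (0.0635), with log2 fold changes from -0.84 to -0.69 over the 6 fits that each leave out 1 library.

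Eef1a2, the eEF1A gene of muscle and neurons, did not pass the test. It stood at 218, 224 and 210.1 FPKM at day 0 and 216, 271 and 268 FPKM in the older hearts, on 6066 to 8779 reads per library. Older replicates 2 and 3 were above every day 0 library, whereas older replicate 1 lay within the day 0 range. The log2 fold change was 0.20 (95% interval -0.06 to 0.47, limma adjusted p = 0.300). In the authors' deposited table the same gene has a log2 fold change of 0.33 and an adjusted p of 0.0276. Day 0 replicate 3 had the lowest Eef1a2 of all 6 libraries, and without it the log2 fold change was 0.18 (adjusted p = 0.396).

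Eef1a1 thus remained the more abundant gene in every library, and the proportion of the pair differed between the ages without overlap. Eef1a1 was 15.7, 13.5 and 16.2 times Eef1a2 in the day 0 libraries and 8.34, 6.83 and 8.29 times Eef1a2 in the older ones. Eef1a2 made up 5.98%, 6.91% and 5.81% of the pair's FPKM at day 0 and 10.7%, 12.8% and 10.8% in the older hearts, with no overlap between the ages. The mean share went from 6.24 ± 0.593% to 11.4 ± 1.18% (SD, n = 3), a difference of 5.18 percentage points with a two-sided exact permutation p of 0.1, the smallest that 3 against 3 libraries allow. The difference was 4.97 points without day 0 replicate 3. As shares of library reads, Eef1a1 went from 0.456% to 0.272% and Eef1a2 from 0.0437% to 0.0506%. The summed eEF1A level went from 3498 ± 229.8 to 2210 ± 247 FPKM (SD, n = 3).

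The eEF1A pair and the eIF4A pair described below each hold closely related proteins whose genes had different log2 fold changes, so the sequence around the start of these 4 genes is shown for reference. The sequences are RefSeq's, of assembly GRCr8, from 80 bases before to 20 bases after the start RefSeq annotates. Capitals mark 3 kinds of motif. The first is TATAAA and the second is CCAAT, each on either strand. The third is a start run on the sense strand, which is at least 5 bases long, opens with a C no more than 5 bases from the start and goes on with pyrimidines only. The sequences stand at chr8:88225050-88225149 (Eef1a1), chr3:188652614-188652713 (Eef1a2), chr10:54888583-54888682 (Eif4a1) and chr11:91275304-91275403 (Eif4a2), all on the minus strand.
Eef1a1: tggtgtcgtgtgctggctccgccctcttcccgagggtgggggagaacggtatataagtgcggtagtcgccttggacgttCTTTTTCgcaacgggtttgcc
Eef1a2: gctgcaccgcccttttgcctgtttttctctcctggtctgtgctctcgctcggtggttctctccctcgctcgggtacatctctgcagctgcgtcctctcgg
Eif4a1: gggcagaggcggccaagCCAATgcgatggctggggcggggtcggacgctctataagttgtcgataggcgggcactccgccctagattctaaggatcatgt
Eif4a2: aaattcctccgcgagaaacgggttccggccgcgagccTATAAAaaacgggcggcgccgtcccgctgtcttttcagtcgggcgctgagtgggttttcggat
Eef1a1 has a start run, which begins 1 base before the annotated start, and no motif of the 3 stands in the stretch shown for Eef1a2. Pyrimidine runs at the first base of the messenger RNA are known from the translation machinery in mammals, where mTOR controls the translation of such messengers. The match used here is looser, as it may open up to 5 bases from the annotated start. It does not by itself mark a transcript as one of these. RefSeq promoters were matched for 56 of the 61 members, and 16 of these (28.6%) had a start run on the sense strand against 17.0% of all 27457 promoters in the table. Of the members called lower, 2 of 10 with a promoter had one, as did 14 of the 43 that were not called. The 250 bases before the start held TATAAA on either strand in 5.4% of the members (13.1% of all promoters), CCAAT in 26.8% (34.3%) and CACGTG, which reads the same on both strands, in 19.6% (5.8%). Motifs were counted without regard to overlap. The background takes every promoter in the table and was not limited to genes expressed in these hearts or matched to the members in level. A match of letters is a description of the sequence and not of a bound site.

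**Figure D3:**
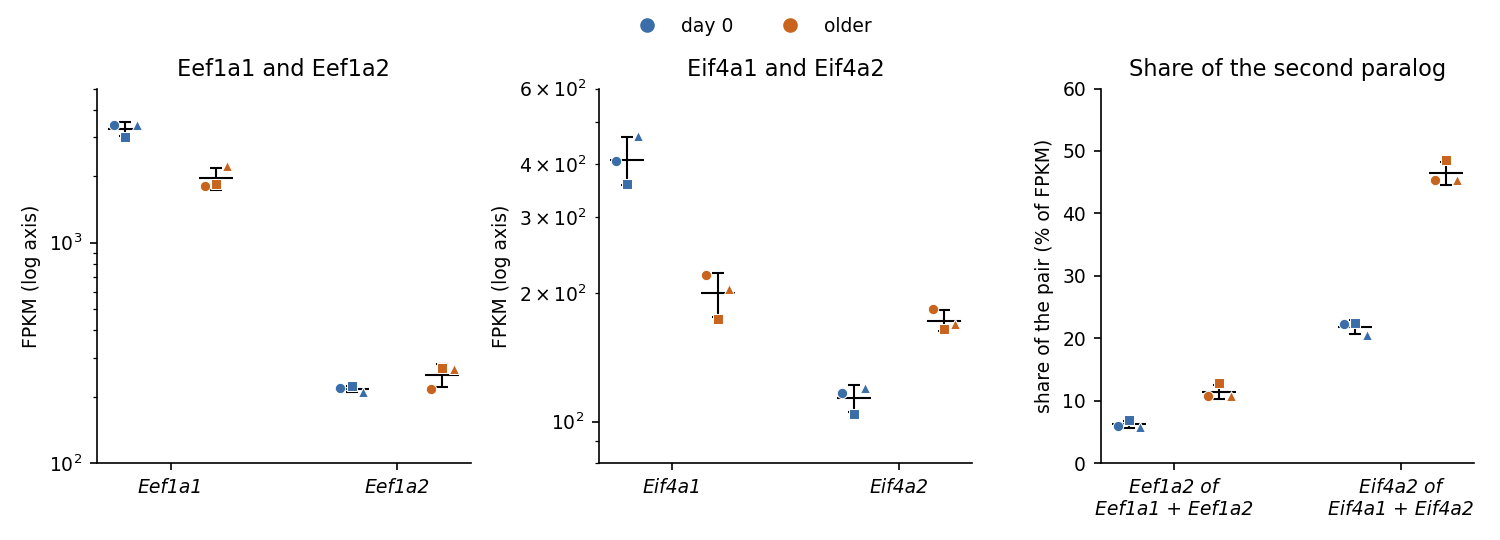
FPKM of Eef1a1 and Eef1a2 (left, log axis) and of Eif4a1 and Eif4a2 (middle, log axis) and the share of the second gene in each pair's FPKM (right, percent). Points are libraries (circle, square and triangle for replicates 1, 2 and 3, blue for day 0 and orange for older hearts), and bars are the mean ± SD of 3 libraries: Eef1a2 goes from 6.24% to 11.4% of its pair, and Eif4a2 from 21.8% to 46.4% of its pair.

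Of the 3 subunits of eEF1B, the exchange factor of eEF1A, 1 was called. Eef1g, the scaffold subunit, stood at 330.5, 344 and 388 FPKM at day 0 and 218, 229.7 and 214 FPKM in the older hearts. No older library reached the day 0 range, and the log2 fold change was -0.68 (limma adjusted p = 0.00754). Its call held with each library left out in turn, at adjusted p-values from 0.0141 to 0.0411.

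Eef1b2 and Eef1d, the subunits that carry out the nucleotide exchange, were not called. Eef1b2 stood at 131, 126 and 98.2 FPKM at day 0 and 84.4, 71.3 and 97.0 FPKM in the older hearts. Eef1d stood at 42.0, 36.5 and 44.0 FPKM at day 0 and 35.9, 33.3 and 33.9 FPKM in the older hearts. Older libraries were below the day 0 libraries for both, by -0.49 (adjusted p = 0.101) and -0.24 (adjusted p = 0.261) on the log2 scale.

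Eef1e1, whose protein belongs to the complex that joins several aminoacyl-tRNA synthetases, showed the lowest log2 fold change of any member tested. It stood at 10.1, 10.3 and 10.3 FPKM at day 0 and 3.33, 5.38 and 3.21 FPKM in the older hearts. The day 0 libraries lay close together and the older ones were all below them, at a log2 fold change of -1.20 (limma adjusted p = 0.0211). This call held only without older replicate 2 (adjusted p = 0.0400), and with any 1 of the other libraries left out the adjusted p ran from 0.0512 to 0.0850. The 4 genes of this role summed to 524 ± 14.3 FPKM at day 0 and 343 ± 4.52 FPKM in the older hearts (SD, n = 3).

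Eef2, the translocase, was not called. It stood at 549, 602 and 591 FPKM at day 0 and 377, 456 and 491 FPKM in the older hearts. The older libraries were all below the day 0 libraries, and the log2 fold change of -0.40 had an adjusted p of 0.0758 (0.00924 with voom on recovered reads). Eef2k, the kinase that inhibits eEF2, stood at 14.4, 17.0 and 19.1 FPKM at day 0 and 16.6, 16.6 and 15.6 FPKM in the older hearts. Its libraries overlapped, and the log2 fold change of -0.04 turned to 0.08 with centring on the median gene, 0.07 with quantile normalization and 0.05 without day 0 replicate 3.

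The lysine methyltransferases of elongation factors were low and not called by limma or in the authors' deposited table, and none had an unadjusted p under 0.05. Eef1akmt1, Eef1akmt2 and Eef2kmt, which modify eEF1A and eEF2, had mean levels of 2.49, 9.03 and 1.15 FPKM. Their ages overlapped. Eef1akmt4, the member left untested, was listed at 0 in 3 of the 6 libraries.

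**Figure D4:**
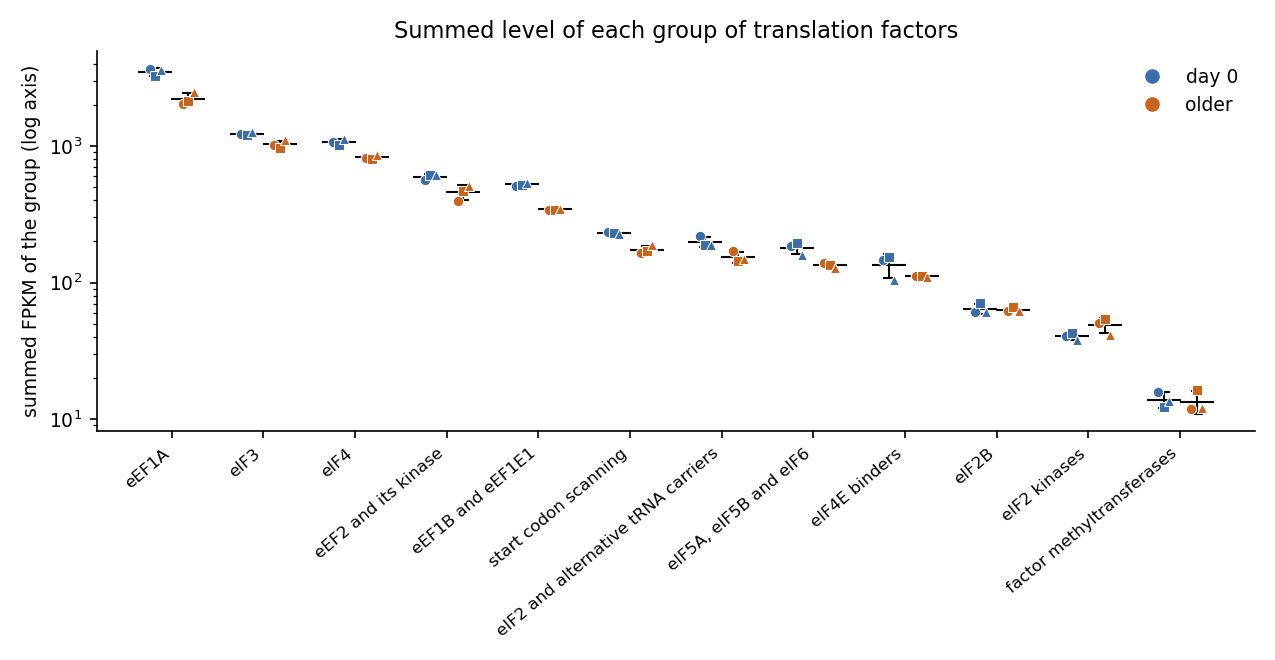
Summed FPKM (log axis) of each role group in the 6 libraries, with circles, squares and triangles for replicates 1, 2 and 3 and bars for the mean ± SD of 3 libraries at each age. The start codon scanning, eIF2, eIF3, eIF4, eIF5A with eIF5B and eIF6, eEF1A, eEF1B and eEF2 groups lie lower in every older library. The eIF2B, eIF4E binder, methyltransferase and eIF2 kinase groups overlap, and the kinases average higher in the older hearts.

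Among the initiation factors, the scanning group held 1 lower call among 5 members, all with negative log2 fold changes. Eif1ax, an eIF1A gene on the X chromosome in the RefSeq table, stood at 45.6, 46.3 and 40.4 FPKM at day 0 and 24.7, 28.0 and 27.3 FPKM in the older hearts. The ages did not overlap, and it fell with a log2 fold change of -0.71 (limma adjusted p = 0.0149). Its call held only without day 0 replicate 3 (adjusted p = 0.0180), and with any 1 of the other libraries left out the adjusted p ran from 0.0540 to 0.0569.

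Eif1a, a second eIF1A gene, was not called. It stood at 15.2, 18.4 and 13.0 FPKM at day 0 and 6.002, 8.47 and 12.3 FPKM in the older hearts. The older libraries were below the day 0 libraries but far apart, at a log2 fold change of -0.77 (adjusted p = 0.115). Eif1, the factor that guards start codon choice, stood at 140.01, 123 and 139.6 FPKM at day 0 and 109, 119.7 and 120.0 FPKM in the older hearts. It too was lower in each older library, by less (log2 fold change -0.20, adjusted p = 0.256).

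Of the remaining scanning genes, Eif1b, a close relative of Eif1, had the largest negative value of the group without passing the test (log2 fold change -0.85, adjusted p = 0.169, 62 to 222 reads per library). Eif1ad, named for an eIF1A domain, had a log2 fold change of -0.31 (adjusted p = 0.404). The 5 genes summed to 230.0 ± 3.64 FPKM at day 0 and 174 ± 11.6 FPKM in the older hearts (SD, n = 3).

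eIF2, the carrier of the initiator tRNA, had its alpha subunit called and the others not. Eif2s1, the alpha subunit that stress kinases phosphorylate, stood at 51.2, 41.6 and 52.9 FPKM at day 0 and 29.3, 25.8 and 30.7 FPKM in the older hearts. The older libraries were all lower, with a log2 fold change of -0.74 (limma adjusted p = 0.0202). The call held without day 0 replicate 2 (adjusted p = 0.0349) or day 0 replicate 3 (0.0445), and the adjusted p was 0.0606 to 0.0808 with any 1 of the other 4 libraries left out.

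Eif2s2, the beta subunit, stood at 97.2, 82.0 and 61.6 FPKM at day 0 and 74.3, 57.1 and 64.4 FPKM in the older hearts. Eif2s3, the gamma subunit that holds the tRNA, stood at 47.8, 41.1 and 55.6 FPKM at day 0 and 42.8, 38.4 and 34.8 FPKM in the older hearts. Both overlapped between ages, at a log2 fold change of -0.28 (adjusted p = 0.387) and -0.30 (adjusted p = 0.246). Whether Eif2s1 changed more than the other subunits was not tested. Eif2a and Eif2d, alternative carriers of initiator tRNA that are not part of eIF2, had log2 fold changes of -0.11 (0.01 with centring on the median gene) and 0.08 and overlapped.

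eIF2B, the exchange factor that recharges eIF2, had no call by limma or in the authors' deposited table among its 5 subunits, and none had an unadjusted p under 0.05. Eif2b5, the catalytic epsilon subunit, stood at 15.1, 14.4 and 15.9 FPKM at day 0 and 14.4, 10.6 and 14.4 FPKM in the older hearts. Its ages overlapped (log2 fold change -0.20, adjusted p = 0.509). The other subunits ran from -0.64 (Eif2b3) to 0.31 (Eif2b4), and all 4 overlapped. The summed level of the 5 genes was 64.0 ± 5.66 FPKM at day 0 and 63.1 ± 2.42 FPKM in the older hearts (SD, n = 3).

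None of the 4 eIF2 kinases was called by limma, their log2 fold changes had both signs, and 1 of them (Eif2ak1) had an unadjusted p under 0.05. Eif2ak1, the kinase regulated by haem, stood at 21.8, 23.5 and 17.7 FPKM at day 0 and 29.3, 33.9 and 25.03 FPKM in the older hearts. It was the only kinase with every older library above every day 0 library (log2 fold change 0.47, adjusted p = 0.131), and the authors' deposited table gives it 0.61 with an adjusted p of 0.0255. Red blood cell markers, which mark cells rich in this kinase, summed to 501 to 810 FPKM at day 0 and 567 to 1187 FPKM in the older hearts, and their part in its level was not tested.

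Eif2ak3, the kinase of the endoplasmic reticulum, stood at 6.11, 7.31 and 9.36 FPKM at day 0 and 10.7, 11.8 and 8.27 FPKM in the older hearts. Eif2ak2, the kinase activated by double-stranded RNA, stood at 7.81, 7.32 and 4.94 FPKM at day 0 and 6.70, 4.84 and 4.85 FPKM in the older hearts. Both overlapped, at a log2 fold change of 0.39 (adjusted p = 0.315) and -0.24 (adjusted p = 0.586). Eif2ak4, the kinase that senses uncharged tRNA, stood at 4.61, 4.92 and 5.80 FPKM at day 0 and 4.02, 3.57 and 3.49 FPKM in the older hearts. The older libraries were the lower ones (log2 fold change -0.38, adjusted p = 0.341). Eif2ak1 was the most abundant of the 4 at both ages, with 51.8 ± 4.29% of their summed FPKM at day 0 and 60.2 ± 2.41% in the older hearts (SD, n = 3).

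eIF3, the scaffold of the initiation complex, was represented by 11 genes, of which 3 fell and 1 rose. Eif3b, a core subunit, stood at 92.3, 101 and 108 FPKM at day 0 and 64.7, 60.8 and 70.4 FPKM in the older hearts. It was lower in every older library (log2 fold change -0.61, limma adjusted p = 0.0175), and the call held without day 0 replicate 1, day 0 replicate 3 or older replicate 3 (adjusted p = 0.0332 to 0.0473) and was lost with any 1 of the others left out (0.0628 to 0.0712).

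Eif3k, a small peripheral subunit, stood at 119.7, 122 and 123 FPKM at day 0 and 82.6, 93.1 and 87.0 FPKM in the older hearts. The day 0 libraries were within a few FPKM of each other and the older ones all lower (log2 fold change -0.47, adjusted p = 0.0235). The call held only without day 0 replicate 3 (adjusted p = 0.0368, against 0.0573 to 0.0804 without any other library), and was lost with centring on the median gene (0.0684) and in the authors' deposited table (0.110). Eif3el1, listed as a copy of the gene for the eIF3e subunit, stood at 78.1, 88.3 and 69.5 FPKM at day 0 and 49.0, 46.0 and 53.2 FPKM in the older hearts. The ages did not overlap (log2 fold change -0.66, adjusted p = 0.0207), and the call held only without day 0 replicate 3 (0.0200, against 0.0575 to 0.0830 without any other library). The RefSeq table also gives this name as a synonym of Eif3e, which has no row of its own here, so which of them the reads came from is uncertain.

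Eif3j, a loosely attached subunit that sits near the mRNA entry channel, rose. It stood at 55.6, 62.4 and 58.2 FPKM at day 0 and 108, 86.6 and 85.1 FPKM in the older hearts. Every older library was above every day 0 library, and the log2 fold change was 0.65 (limma adjusted p = 0.0210), a 1.59-fold rise. The call held without day 0 replicate 3 (adjusted p = 0.0461) and was lost with any 1 of the other libraries left out (0.0560 to 0.0735). The authors' deposited table gives 0.78 with an adjusted p of 3.56e-06.

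The other eIF3 genes were not called, and all had negative log2 fold changes. Eif3a, the largest subunit, stood at 316, 325 and 336 FPKM at day 0 and 286, 238 and 306 FPKM in the older hearts. Eif3c, which binds eIF1 and eIF5, stood at 166, 159 and 175 FPKM at day 0 and 135, 140.02 and 158 FPKM in the older hearts. Both were lower in each older library, at a log2 fold change of -0.24 (adjusted p = 0.229; 0.02 with quantile normalization) and -0.21 (adjusted p = 0.231). Eif3d, Eif3f, Eif3g, Eif3l and Eif3m ran from -0.39 (Eif3l) to -0.20 (Eif3f). The sum over the 11 listed genes, Eif3el1 among them, went from 1232 ± 28.0 to 1028 ± 69.3 FPKM (SD, n = 3). Each older library was below each day 0 library. Eif3h and Eif3i are not among the members, so this is not a sum over the whole complex.

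The eIF4 group held the strongest contrast between relatives. Eif4a1, the main gene for the helicase eIF4A, stood at 406, 358 and 465 FPKM at day 0 and 220.4, 174 and 204 FPKM in the older hearts. All older libraries were below all day 0 libraries, a 2.05-fold drop with a log2 fold change of -1.03 (95% interval -1.34 to -0.72, limma adjusted p = 0.00552). Its adjusted p was 0.0163 to 0.0334 with each library left out in turn.

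Eif4a2, the second eIF4A gene, rose. It stood at 117, 104 and 119.6 FPKM at day 0 and 183, 165 and 169 FPKM in the older hearts. Here every older library was above every day 0 library, a 1.52-fold rise with a log2 fold change of 0.60 (95% interval 0.37 to 0.83, limma adjusted p = 0.0132). The call held with any 1 of the day 0 libraries left out (adjusted p = 0.0201 to 0.0492) and was lost with any 1 of the older libraries left out (0.0510 to 0.0537), at log2 fold changes that stayed positive.

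The eIF4A pair moved nearer to equal levels. Eif4a1 was 3.48, 3.44 and 3.89 times Eif4a2 in the day 0 libraries and 1.20, 1.06 and 1.21 times Eif4a2 in the older ones. The share of Eif4a2 in the pair went from 21.8 ± 1.13% to 46.4 ± 1.89% of FPKM (SD, n = 3), a value singled out after it was seen and given with no test. Eif4a3, the relative that works in the exon junction complex and not in cap recruitment, was not called (log2 fold change -0.39, adjusted p = 0.111).

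Of the cap-binding proteins, Eif4e fell. This gene for the main cap-binding protein stood at 29.3, 23.9 and 24.2 FPKM at day 0 and 13.4, 14.2 and 17.7 FPKM in the older hearts. No older library reached the day 0 range (log2 fold change -0.74, limma adjusted p = 0.0340), but the call was lost whichever 1 of the 6 libraries was left out (adjusted p = 0.0535 to 0.118) and with centring on the median gene (0.0624).

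Eif4e2, whose protein binds the cap without recruiting eIF4G, stood at 54.1, 44.4 and 40.2 FPKM at day 0 and 31.4, 40.8 and 40.1 FPKM in the older hearts. Eif4e3, the third cap-binding relative, stood at 7.11, 6.70 and 4.69 FPKM at day 0 and 9.98, 9.50 and 9.43 FPKM in the older hearts. The former overlapped (log2 fold change -0.30, adjusted p = 0.294), and the latter was higher in every older library without passing the test (log2 fold change 0.59, adjusted p = 0.125). In the summed FPKM of the 3 genes, Eif4e went from 33.1 ± 1.70% to 24.3 ± 2.17% and Eif4e3 from 7.86 ± 1.07% to 15.7 ± 2.25% (SD, n = 3).

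The eIF4G scaffolds were all lower in each older library, and none was called by limma. All 3 had an unadjusted p under 0.05, a position whose share of all genes was not counted. Eif4g2 and Eif4g3 were called by voom on recovered reads (adjusted p = 0.0257 and 0.0397). That fit called 15 of 60 members and 1831 of 13117 genes. Eif4g1, the main scaffold, stood at 73.4, 65.7 and 73.9 FPKM at day 0 and 59.9, 56.4 and 62.7 FPKM in the older hearts. Eif4g2, a relative that lacks the eIF4E-binding part, stood at 134, 129.9 and 127 FPKM at day 0 and 93.6, 114 and 103 FPKM in the older hearts. Eif4g3, the second full scaffold, stood at 43.9, 43.0 and 52.6 FPKM at day 0 and 35.6, 35.6 and 35.8 FPKM in the older hearts. Their log2 fold changes lay close together, at -0.25, -0.34 and -0.37 (adjusted p = 0.191, 0.0875 and 0.104). The helicase helper Eif4b stood at 84.1, 92.7 and 92.8 FPKM at day 0 and 69.4, 81.5 and 88.6 FPKM in the older hearts. It overlapped (log2 fold change -0.17, adjusted p = 0.410), and the related Eif4h had a log2 fold change of -0.22 (adjusted p = 0.278).

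The proteins that bind eIF4E were not called by limma or in the authors' deposited table, and 1 of the 4 (Eif4enif1) had an unadjusted p under 0.05. Eif4ebp1, the binder best known as an mTOR target, stood at 94.9, 105 and 52.5 FPKM at day 0 and 59.5, 66.2 and 55.9 FPKM in the older hearts. Day 0 replicate 3 fell below every older library while the other day 0 libraries were above them all, and without it the log2 fold change went from -0.41 (adjusted p = 0.345) to -0.72 (adjusted p = 0.0212). Eif4ebp2, a second such binder, stood at 18.5, 13.4 and 14.0 FPKM at day 0 and 16.4, 13.5 and 18.1 FPKM in the older hearts. It overlapped, and its log2 fold change of 0.07 turned to -0.02 without day 0 replicate 2 or older replicate 3.

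Eif4ebp3, the third binder, stood at 18.8, 21.2 and 21.6 FPKM at day 0 and 24.99, 21.4 and 25.1 FPKM in the older hearts. Its libraries overlapped too (log2 fold change 0.20, adjusted p = 0.396). The row has a recovered length of 8236 bases while RefSeq gives the whole gene 1747 bases, so it covers more than this gene and its level is not comparable with the other binders. Eif4enif1, which carries eIF4E into the nucleus, was lower in each older library (log2 fold change -0.47, adjusted p = 0.0852).

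In the last initiation group Eif6 was called. This gene, whose protein keeps the large ribosomal subunit from joining too early, stood at 51.0, 51.1 and 55.3 FPKM at day 0 and 40.4, 38.9 and 35.4 FPKM in the older hearts. The ages did not overlap (log2 fold change -0.45, limma adjusted p = 0.0474), but the call was lost whichever 1 of the 6 libraries was left out (adjusted p = 0.0689 to 0.140), with centring on the median gene (0.126) and in the authors' deposited table (0.256).

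Eif5b, the GTPase of subunit joining, stood at 34.2, 39.2 and 38.0 FPKM at day 0 and 30.7, 30.0 and 31.5 FPKM in the older hearts. Older libraries were all lower (log2 fold change -0.26, adjusted p = 0.200). Eif5a, the factor that carries hypusine and eases difficult peptide bonds, stood at 97.2, 101 and 63.2 FPKM at day 0 and 66.5, 64.7 and 59.9 FPKM in the older hearts. As with Eif4ebp1, day 0 replicate 3 was unlike the other day 0 libraries, and without it the log2 fold change went from -0.42 (adjusted p = 0.205) to -0.63 (adjusted p = 0.0187). Eif5a2, its scarcer relative, stood at 2.56, 2.10 and 3.58 FPKM at day 0 and 1.06, 1.25 and 1.63 FPKM in the older hearts. The older libraries were the lower ones (log2 fold change -0.68, adjusted p = 0.249). Neither Eif5 nor Eif3e was found in the table under those names, and Eif3h and Eif3i are not among the members either.

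**Figure D5:**
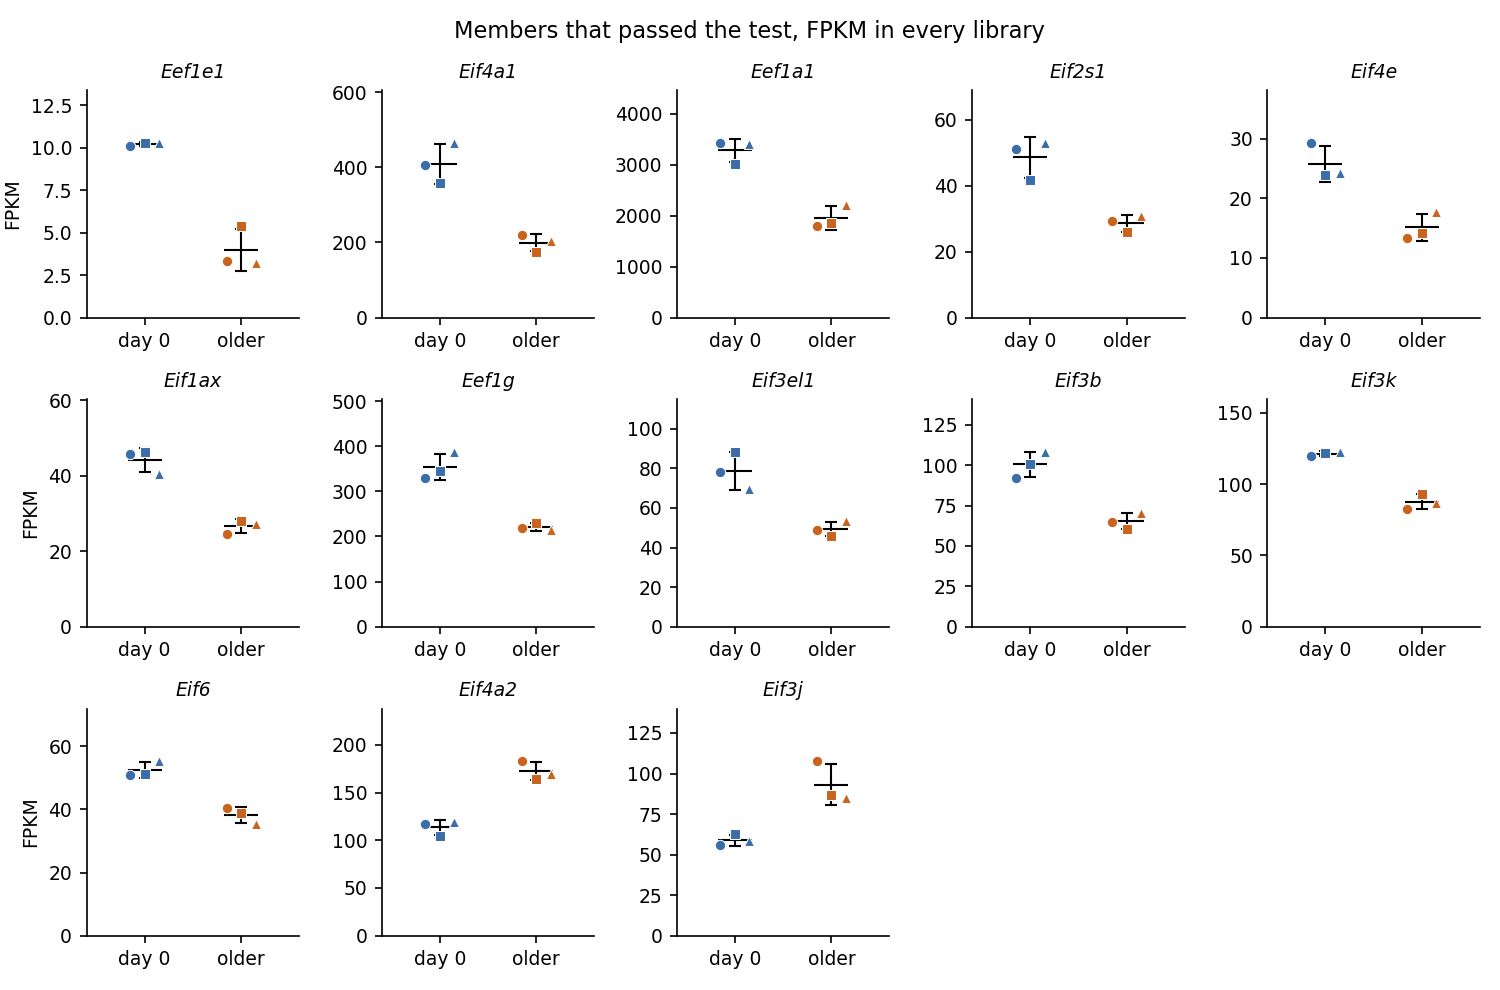
FPKM in every library (linear axis from 0) for the 13 members called, with circles, squares and triangles for replicates 1, 2 and 3, blue for day 0, orange for older hearts, and bars for the mean ± SD of 3 libraries. In every panel the ages do not overlap, with the older libraries lower for 11 genes and higher for Eif4a2 and Eif3j.

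The authors' deposited table, which gives its own fold changes and p-values, also called 13 members at an adjusted p under 0.05, 4 higher and 9 lower (21.3% of 61, against 11.8% of the 16898 genes listed). The higher share was 6.56% of members against 6.26% of genes, and the lower share 14.8% against 5.53%. The 2 tests shared 11 members. The deposited table adds Eef1a2 and Eif2ak1 and lacks Eif3k and Eif6.

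Other genes of the pathway were counted from lists of related factors. Among 8 genes of termination and recycling, 1 was called (12.5%, against 9.26% of all genes tested). Etf1, the release factor that reads stop codons, stood at 80.8, 69.7 and 75.4 FPKM at day 0 and 38.6, 52.2 and 45.7 FPKM in the older hearts. It fell by 0.72 on the log2 scale (adjusted p = 0.0205), with every older library below every day 0 library. The median log2 fold change of that list was -0.40, and that of all genes tested -0.11. Among 13 poly(A)-binding proteins and regulators of the cap complex, 4 fell and none rose (30.8% called, against 9.26% of all genes tested and 5.73% for lower calls), although the list median of -0.05 lay above the -0.11 of all genes. Several genes of this list are abundant, and of all genes averaging 20 FPKM or more 19.6% were called and 12.5% called lower. That background does not cover 2 of the 4 lower calls, which average below 20 FPKM. These are Rps6kb1 (mean 20.4 FPKM at day 0 and 11.9 FPKM in the older hearts) and Dhx29 (10.4 and 5.31 FPKM). Pabpc1, the main cytoplasmic poly(A)-binding protein, stood at 840.2, 894 and 1002 FPKM at day 0 and 605, 571 and 567 FPKM in the older hearts. Each older library was lower (log2 fold change -0.65, adjusted p = 0.00972). The other 3 were Ddx3x, a helicase of the initiation complex (log2 fold change -0.61, adjusted p = 0.0201), Rps6kb1, the kinase of ribosomal protein S6 (log2 fold change -0.73, adjusted p = 0.0403), and Dhx29, a helicase for structured leaders (log2 fold change -0.85, adjusted p = 0.0354).

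Of 8 genes found for the hypusine of eIF5A and the diphthamide of eEF2, Dph5, a methyltransferase of diphthamide synthesis, was the only call (12.5%, background 9.26%) and fell (log2 fold change -1.21, adjusted p = 0.0311), and the list median was -0.34. The integrated stress response, which follows phosphorylation of eIF2, had 10 of its 14 genes tested and 1 higher call, Ppp1r15a (10% called, background 9.26%, or 3.52% for higher calls), with a median of -0.12. Ppp1r15a, which brings a phosphatase to eIF2, stood at 18.5, 20.042 and 23.2 FPKM at day 0 and 30.1, 33.2 and 35.2 FPKM in the older hearts. Every older library was higher (log2 fold change 0.65, adjusted p = 0.0298). Atf4, the transcription factor of that response, was higher in each older library without passing the test (log2 fold change 0.37, adjusted p = 0.0814), as was Ddit3, a transcription factor of its later phase (log2 fold change 1.17, adjusted p = 0.110). Impact, an inhibitor of the activation of Eif2ak4, was lower in each older library without passing (log2 fold change -0.63, adjusted p = 0.0509), as was the asparagine synthetase gene Asns (log2 fold change -1.27, adjusted p = 0.111). Psat1, too low to be tested, stood at 0.628, 1.73 and 1.64 FPKM at day 0 and 0, 0.0237 and 0.0763 FPKM in the older hearts. The other untested genes (Trib3, Chac1 and Fgf21) overlapped. Among 10 mitochondrial translation factors found, Gfm2, a factor of mitochondrial ribosome recycling, was the only call (10%, background 9.26%) and fell (log2 fold change -0.84, adjusted p = 0.0280), and the list median was -0.05. These lists were not chosen independently of earlier results of these data. Their calls come from the limma fit to all 6 libraries, and whether they hold under other settings was not examined.

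Sharing of reads with copies limits several of these levels. RefSeq names 20 pseudogenes after Eef1a1, 16 after Eef1g, 10 after Eif4e and 8 each after Eif4a1 and Eif1, and 32 of the 61 members have at least 1. How reads that match both a gene and a copy were assigned is not given in the sources used here, so the levels of these members are uncertain by an amount that was not tested.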

How the data were processed

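Input RNA of rat heart was measured in 6 libraries, 3 per age. The labels' protocols give removal of ribosomal RNA, SMART cDNA synthesis and PCR. HISAT2, HOMER 4.10 and the build rn5 are listed, with no role, in the submitters' processing notes. The sources used here do not give the read counter or the gene annotation. The authors deposited FPKM per gene and library, beside a p-value, its adjusted form and a log2 fold change of older over day 0 for each gene, per the file headers. Within each gene the deposited FPKM were whole multiples of 1 read, so read counts, gene lengths and library totals were recovered for 100% of 16898 genes (relative tolerance 2e-13, 976 genes with a shared factor). They are the smallest whole numbers that fit, so a factor common to a gene's reads and length, or to the library totals, could go unseen. Reads give counting error only.

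From the deposited FPKM, log2(FPKM + 1) was fitted with limma 3.58.1 in R 4.3.3 (lmFit, eBayes with a mean-variance trend, no covariate) over the 13117 genes averaging 1 FPKM or more, with Benjamini-Hochberg adjustment over all of them and calls at 0.05. The script was tested on simulated data. The scale understates changes of low genes. The Eef1a2 share was tested with a two-sided exact permutation test. Columns headed OD and 10D were taken as the day 0 and day 7 input samples. Replicate numbers come from the column names. Same-numbered libraries did not deviate together (correlations -0.036, -0.003 and -0.05), so numbers were not taken as pairs. Promoters and pseudogene names come from RefSeq tables of assembly GRCr8, matched by symbol.

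The members and gene lists were chosen with earlier results of these data known. Named with values in each library were a fixed panel of factors and every other member called. The share of Eif4a2 in its pair, the shares of the cap-binding genes and of the kinases, and the members that change call without a library were named after their values were seen. Alternatives tried were another pseudocount, no filter or a filter at 5 FPKM, centring on the median gene, quantile normalization, no trend, voom on recovered reads, the replicate block, each library left out, and the authors' deposited table.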

Additional observations from a re-analysis of the deposited data

How the results depend on the processing

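The 13 members called became 2 with no mean-variance trend (Eef1e1 and Eif4a1) and 5 with the replicate block (1 higher, 4 lower). They became 12 without day 0 replicate 3, the library with skeletal muscle RNA, and 2 to 5 without any 1 of the other libraries. Under the other alternatives they lay between 10 and 15. Only Eif4a1 kept its call in all of them, and Eef1g in all but the fit without trend. All genes called went from 1214 to 669 with no trend, 1831 with voom on recovered reads, 501 with the replicate block and 1992 in the authors' deposited table. They numbered 1130 without day 0 replicate 3 and 363 to 521 without any 1 of the other libraries. Eef1a1 kept its direction under every alternative. It lost its call with no trend (log2 fold change -0.75, adjusted p = 0.0558) and without 1 of 3 libraries, over a leave-one-out range of -0.84 to -0.69, and kept it with the replicate block (adjusted p = 0.0382). Eef1a2 passed the threshold only in the authors' deposited table (0.33), at 0.15 to 0.31 with 1 library left out, with an adjusted p of 0.0555 under quantile normalization (0.41) and 0.364 with the replicate block. The rise in its share was 4.502 to 5.54 points with 1 library left out, where the exact test cannot go below 0.2, and 6.94 points by reads. Of the 60 members tested, 8 had both signs among the limma fits, none of them called: Eef2k (0.0805 centred, 0.0728 quantile, 0.0681 in the authors' deposited table, -0.140 to 0.0491 with 1 library left out), Eif3a (0.0196 quantile), Eif4ebp2 (-0.0214 to 0.203 with 1 library left out), Eif2a (-0.181 to 0.00819), Eif2d (-0.0473 to 0.209), Eif2b1 (-0.0267 to 0.495), Eef1akmt2 (-0.198 to 0.232) and Eef2kmt (-0.393 to 1.52). For the other members named, 496 alternatives left direction and call as they were, 74 lost a call and 6 gained one. Fits with a library left out have fewer samples, and the fit with the block has fewer degrees of freedom. The part of this in the calls lost, and other causes, were not tested. Members with few reads, such as Eef2kmt with 0 to 47 reads per library, have the widest intervals.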
